A study of Sus scrofa with 6 samples.

Results

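GPNMB, CTSC and the STEAP metalloreductase genes STEAP1, STEAP2 and STEAP4 were followed in whole pig embryos that lacked a paternal genome and in control embryos. The 5 genes were chosen by symbol from a count table of 1780 genes, and selected on a total of at least 10 counts over all libraries, which all 5 met. STEAP4, with 54 counts in total, lay nearest to that limit, and no listed gene fell below it. They had been listed with earlier results of the parthenote and control comparison known, so the values below describe them and the p-values are not independent evidence for the choice.

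The embryos were of Landrace x Yorkshire x Duroc stock and were collected whole at embryonic day 21. Controls (n = 3) were labelled untreated and carried both parental genomes. Parthenotes (n = 3) grew in surrogate gilts from oocytes activated electrically without fertilization, so every chromosome was maternal. Each library held RNA of whole embryo, with no sorting of cell types, and the labels name no litter, dam or sex. If the samples of a group shared a litter, p-values measure only the spread among these samples. Conception, handling, dam and sex cannot be told apart from the group.

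Lysosomes are acidic organelles that break down proteins, lipids and carbohydrates delivered by endocytosis and autophagy. GPNMB is a transmembrane glycoprotein of lysosomes and melanosomes, known from macrophages, osteoclasts and pigment cells. CTSC, also called dipeptidyl peptidase I, is a lysosomal cysteine protease that trims dipeptides from protein ends and activates serine proteases of immune cell granules. STEAP proteins are multi-pass membrane proteins of the plasma membrane and endosomes. STEAP2 and STEAP4 carry an NADPH-binding oxidoreductase domain and reduce ferric iron and cupric copper, whereas STEAP1 lacks that domain. STEAP3, the family member best known from red blood cell precursors, was not analysed here.

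The count table used here covers genes of chromosome 9. The 6 libraries held 1193714 to 1484193 counts in them, and CPM below means counts per 1000000 of these reads after TMM scaling, so levels are relative to this chromosome. At these depths, 3 counts in a library, the floor used here, equal 2.02 to 2.36 CPM. One abundant gene without a symbol, ENSSSCG00000014726, took 8.29% to 20.8% of the reads of a library. CPM is not divided by transcript length, so it compares libraries for a gene and not genes with each other.

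GPNMB, CTSC and STEAP2 fell in parthenotes, to 364, 5422 and 370 CPM on average, from 984, 8213 and 772 CPM in controls. STEAP1 was at 142 CPM in controls and 102 CPM in parthenotes and did not pass the test, although its 6 values did not overlap between groups. STEAP4 was close to the detection floor in both groups. By edgeR's quasi-likelihood test, with p-values adjusted by Benjamini and Hochberg's method across the 807 genes tested and a threshold of 0.05, 3 of the 5 genes were lower and 0 were higher. Of all tested genes 3.59% were called lower, 1.61% higher and 5.20% in either direction. All parthenotes lay below all controls for 4 of the 5 genes and for 14.3% of tested genes. Since the genes were listed with this comparison known, nothing is read from these counts. In a whole embryo, fewer cells of a type and less RNA per cell cannot be told apart.

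**Figure D1:**
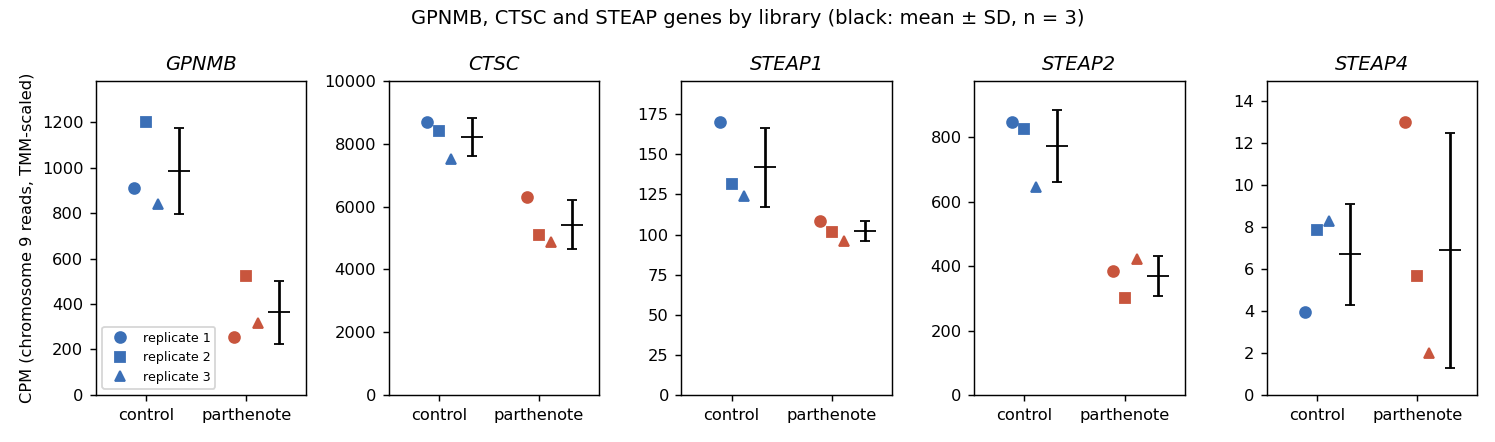
Expression of each gene in CPM (vertical axes, linear and starting at 0) in control and parthenote libraries, 1 point per library with the replicate number as its shape, and the mean ± SD of 3 libraries in black. For GPNMB, CTSC, STEAP1 and STEAP2 every parthenote point lies below every control point, while the STEAP4 points of the groups overlap.

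In controls 1 to 3 GPNMB was counted 1157, 1530 and 1114 times. Parthenotes 1 to 3 had 335, 735 and 468 counts. After scaling, these were 912, 1201 and 841 CPM in controls and 256, 521 and 315 CPM in parthenotes. Every parthenote was therefore below every control, with control 2 the highest library of its group and parthenote 2 of its own. The group means were 984 ± 190 and 364 ± 139 CPM (SD, n = 3 each). The log2 fold change was -1.43 ± 0.26 (SE), with a 95% interval of -2.02 to -0.85, or 2.70-fold lower. edgeR's adjusted p was 0.0175. Among the 807 genes this was the 14th lowest log2 fold change, and 1.61% of the genes had a lower one.

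The spread of GPNMB between embryos was wide. Its coefficient of variation was 19.3% in controls and 38.2% in parthenotes, where the median tested gene had 11.3% in controls. The call was lost when control 1, control 2 or parthenote 3 was left out (adjusted p 0.0704, 0.0700 and 0.0760) and when no filter on low counts was used (0.110), and the log2 fold change without a library ran from -1.78 to -1.24.

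CTSC had by far the most reads of the 5 genes. Controls 1 to 3 had 11040, 10720 and 9972 counts of it, and parthenotes 1 to 3 had 8264, 7174 and 7226. Scaled, the controls stood at 8699.5, 8412 and 7529 CPM and the parthenotes at 6319, 5086 and 4862 CPM, again without overlap. Parthenote 1 was nearest to the controls. The means were 8213 ± 610 and 5422 ± 785 CPM (SD, n = 3 each), a log2 fold change of -0.60 ± 0.13 (SE) with a 95% interval of -0.89 to -0.31. This 1.51-fold lower level had an adjusted p of 0.0283 in edgeR's quasi-likelihood test. Its call did not survive the loss of any library other than parthenote 1: the adjusted p was 0.0615, 0.118 and 0.0567 without control 1, 2 and 3, and 0.135 and 0.107 without parthenote 2 and 3.

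STEAP2 gave the smallest p of the set. The libraries of controls 1 to 3 held 1076, 1051 and 854 counts, and those of parthenotes 1 to 3 held 505, 425 and 627. In CPM, controls were at 848, 825 and 645 and parthenotes at 386, 301 and 422. The lowest control, control 3, was above the highest parthenote, parthenote 3. Means were 772 ± 111 CPM in controls and 370 ± 62.0 CPM in parthenotes (SD, n = 3 each). The log2 fold change was -1.06 ± 0.16 (SE), 95% interval -1.42 to -0.71, or 2.09-fold lower, with an adjusted p of 0.00499 in edgeR's test. It passed in each of the 15 alternatives run, with adjusted p-values from 6.75e-08 to 0.0350.

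STEAP1, the family member without the reductase domain, was counted 216, 168 and 164 times in controls 1 to 3 and 142, 143 and 143 times in parthenotes 1 to 3. These were 170.2, 132 and 124 CPM in controls and 109, 101 and 96.2 CPM in parthenotes. Control 1 stood above the other controls, and the parthenotes lay close together. The log2 fold change was -0.48 ± 0.16 (SE), with a 95% interval of -0.85 to -0.10. An unadjusted p under 0.05 was found for 4 of the 5 genes and for 21.7% of all tested genes. STEAP1, the 1 of these that missed the adjusted threshold, had an unadjusted p of 0.0177 and an adjusted p of 0.143 in edgeR's quasi-likelihood test, and it passed in none of the 15 alternatives (0.101 to 0.301). Without control 1 its log2 fold change was -0.32.

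STEAP4, a metalloreductase known from adipose tissue and inflammation, was barely detected. Controls 1 to 3 gave 5, 10 and 11 counts and parthenotes 1 to 3 gave 17, 8 and 3. The highest and the lowest CPM of all 6 libraries both came from parthenotes, 13.0 CPM in parthenote 1 and 2.02 CPM in parthenote 3, the latter at the floor. Group means were 6.70 ± 2.40 and 6.90 ± 5.59 CPM (SD, n = 3 each). The log2 fold change of 0.01 ± 0.65 (SE) had a 95% interval of -1.47 to 1.49 and an adjusted p of 0.993 in edgeR's test, so the data do not exclude a change of 2-fold in either direction. Its coefficient of variation was 81.1% in parthenotes and 35.8% in controls. Its sign was negative with library totals, upper-quartile factors, limma-voom and the replicate block, and without control 1 (-0.25) or parthenote 1 (-0.80).

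**Figure D2:**
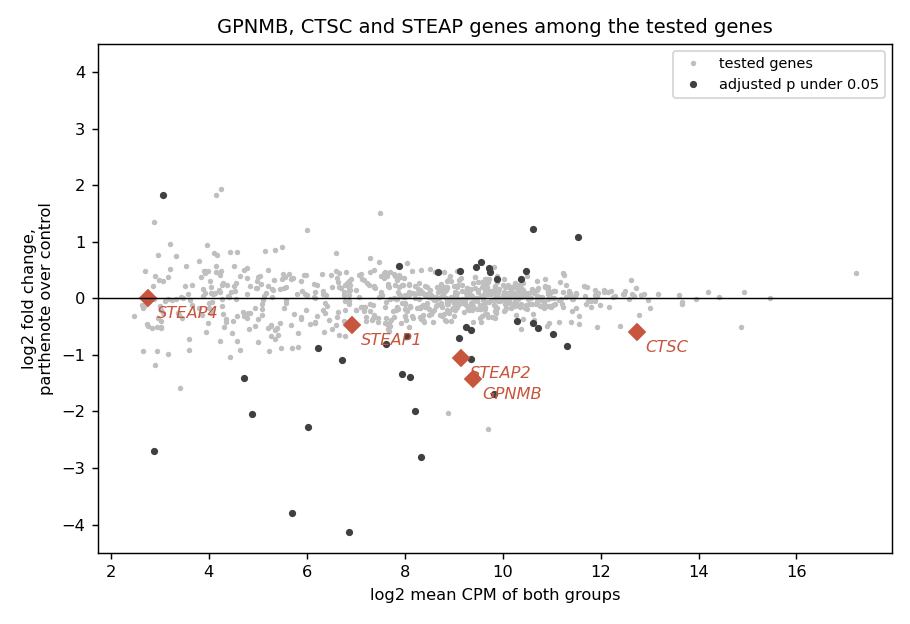
Log2 fold change of parthenote over control (vertical axis) against the log2 mean CPM of both groups (horizontal axis) for the tested genes, with genes at an adjusted p under 0.05 in dark grey and the GPNMB, CTSC and STEAP genes as red diamonds; 2 genes lie outside the vertical range. GPNMB and STEAP2 lie near each other at -1.43 and -1.06, CTSC at high expression at -0.60, and STEAP4 at the low end of expression near 0.

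The authors' deposited normalized values gave the same ordering of changes. By these values, the parthenote mean was 37.6% of the control mean for GPNMB, 48.6% for STEAP2, 66.9% for CTSC, 72.7% for STEAP1 and 104% for STEAP4. For GPNMB they were 1309 ± 248 in controls and 492 ± 191 in parthenotes, and for STEAP2 1027 ± 150 and 499 ± 84.5 (SD, n = 3 each).

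The genes did not share an order of libraries within the parthenotes. Parthenote 2 had the most GPNMB and the least STEAP2 of its group, while parthenote 1 had the most CTSC, STEAP1 and STEAP4 and the least GPNMB. Ratios of counts within a library, in which the library's scaling drops out, show this directly. STEAP2 had 4.98, 6.26 and 5.21 counts per STEAP1 count in controls 1 to 3 and 3.56, 2.97 and 4.38 in parthenotes 1 to 3. The means were 5.48 ± 0.68 and 3.64 ± 0.71 (SD, n = 3 each), and the groups did not overlap.

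The ratio of CTSC to GPNMB counts was 9.54, 7.01 and 8.95 in controls 1 to 3 and 24.7, 9.76 and 15.4 in parthenotes 1 to 3. Parthenote 2 was thus just above the highest control, and the parthenote values spread widely, at 16.6 ± 7.52 against 8.50 ± 1.33 (SD, n = 3 each). A 2-sided exact permutation test on the log2 ratio gave p = 0.10 for STEAP2 to STEAP1 and for CTSC to GPNMB, the smallest that 3 against 3 allows, and 0.20 after Benjamini-Hochberg adjustment over the 4 ratios computed. For STEAP2 to CTSC the exact permutation p was 0.20 (adjusted 0.27), and for STEAP2 to GPNMB 0.40 (adjusted 0.40). None of these tests shows that the changes of the genes differed in size.

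GPNMB, CTSC, STEAP2 and STEAP4 lie apart on the chromosome. By RefSeq's table of Sscrofa11.1, matched by symbol, CTSC spans 21726628 to 21761796 of chromosome 9, STEAP4 68549142 to 68570350, STEAP2 70334785 to 70365687 and GPNMB 92037428 to 92071501. No other RefSeq gene overlaps the spans of GPNMB, CTSC or STEAP2, and a tRNA gene lies within that of STEAP4. The same table lists the symbol STEAP1 at 8996943 to 8997498 of chromosome 5, as a 556 bp entry of unspecified type. Since the count table covers genes of chromosome 9, that entry was not taken as the counted gene. STEAP1 was therefore given no position, and whether its reads were shared with a similar sequence was not tested. By number, its Ensembl identifier falls between those of STEAP4 and STEAP2. Whether the counted STEAP1 lies beside them was not tested.

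Within 500000 bp of GPNMB, CTSC, STEAP2 and STEAP4, 9, 2, 2 and 3 other genes with a symbol were tested. None of these passed in edgeR's quasi-likelihood test, DESeq2 or limma-voom, and 2, 1, 0 and 1 had an unadjusted p under 0.05 in edgeR, beside 21.7% of all tested genes. The neighbours of GPNMB had log2 fold changes from -0.34 to 0.45 with a median of -0.12. MALSU1, a mitochondrial ribosome assembly factor 16908 bp from GPNMB, had a log2 fold change of -0.18 ± 0.17 (SE), and IGF2BP3, an RNA-binding protein gene 33285 bp away, one of -0.12 ± 0.08. Beside CTSC, the neighbours RAB38, a small GTPase of lysosome-related organelles, and GRM5, a glutamate receptor, had -0.23 ± 0.17 and 0.84 ± 0.25. GTPBP10 and CDK14, the neighbours of STEAP2 with a known position, had -0.04 ± 0.11 and 0.04 ± 0.08. STEAP1, without a position, could not be counted as a neighbour of any gene. SRI (sorcin) and ADAM22, the nearest to STEAP4, had -0.20 ± 0.15 and 0.40 ± 0.14.

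Other lysosomal genes of the chromosome were taken from a list of 148 genes of the organelle, of which 15 were in the table and all 15 were tested. In edgeR's test 0 of the 15 were called, 3 had an unadjusted p under 0.05, all of them lower, DESeq2 called 1 and limma-voom 0. Of all tested genes 21.7% had an unadjusted p under 0.05 and 5.20% were called, so these counts are close to or below the background. The median log2 fold change was -0.10, with 9 genes below 0 and 6 above, beside a median of 0.02 over all 807 genes. Their summed level was 14020 to 15119 CPM in controls and 12860 to 13497 CPM in parthenotes, so the summed ranges did not overlap. This sum includes VPS26B, which alone averaged 2623 ± 19.1 CPM in controls and 1955 ± 257 CPM in parthenotes (SD, n = 3 each). No sum without VPS26B was made, so the summed ranges do not show a fall across the list.

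VPS26B, a retromer subunit that returns sorting receptors from endosomes, had the lowest value of that list. It was at 2609, 2645 and 2616 CPM in controls 1 to 3 and 1659, 2083 and 2124 CPM in parthenotes 1 to 3, without overlap. Its log2 fold change was -0.42 ± 0.11 (SE) with an adjusted p of 0.0613 in edgeR's test. It passed with the replicate number as a block (0.0351), with upper-quartile factors (0.0344), without a filter (0.0266) and in DESeq2 (0.0122). SMPD1, the acid sphingomyelinase, had -0.32 ± 0.11, and TPP1, a lysosomal tripeptidyl peptidase, -0.28 ± 0.11, with adjusted p-values of 0.145 and 0.162. TMEM106B, a lysosomal membrane protein and the list's most abundant gene by reads, had -0.10 ± 0.10.

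A list of 71 genes of iron, copper, zinc and haem handling held 5 genes of the table, all tested. In edgeR's quasi-likelihood test 0 were called and 0 had an unadjusted p under 0.05, and DESeq2 and limma-voom also called 0. The median was 0.05, and the values ran from -0.34 for FDX1 (ferredoxin) to 0.09 for FLVCR1, a haem exporter. NOX4, an NADPH oxidase whose haem-binding membrane domain resembles that of STEAP proteins, averaged 266 ± 40.9 CPM among controls and 279 ± 37.4 CPM among parthenotes (SD, n = 3 each). HEPHL1, a copper-containing ferroxidase, had 0.05 ± 0.40 and SLC30A1, a zinc exporter, 0.03 ± 0.17. Without parthenote 1, FDX1 was called lower (adjusted p = 0.0316).

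**Figure D3:**
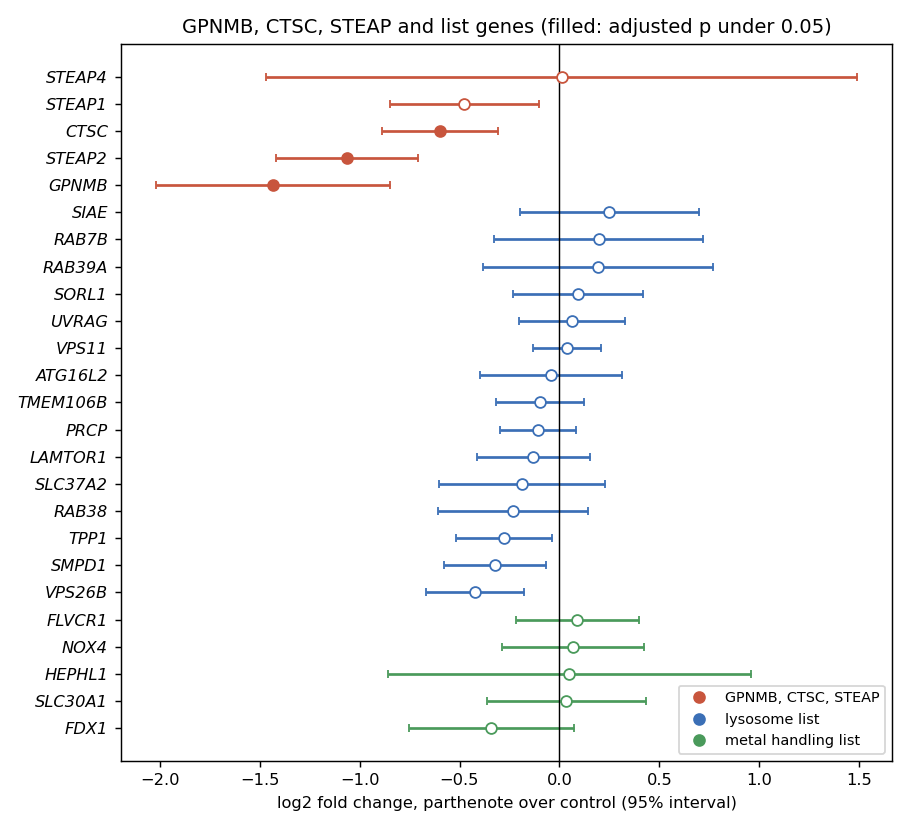
Log2 fold change of parthenote over control with its 95% interval (horizontal axis) for the GPNMB, CTSC and STEAP genes in red, the 15 lysosomal genes in blue and the 5 metal handling genes in green, filled where the adjusted p was under 0.05. The filled points are CTSC, STEAP2 and GPNMB, and the list genes lie between -0.42 and 0.25.

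Markers of cell types in which GPNMB and CTSC are known were measured in the same libraries. Of 28 macrophage and osteoclast markers 3 were in the table and 2 tested. edgeR, DESeq2 and limma-voom called 0 of them, and 1, FOLR2, had an unadjusted p under 0.05 in edgeR, as did 21.7% of all tested genes. FOLR2, a folate receptor of tissue macrophages, was at 439, 483 and 483 CPM in controls 1 to 3 and 399.9, 393 and 348 CPM in parthenotes 1 to 3, a log2 fold change of -0.30 ± 0.11 (SE). For FOLR2 all parthenotes lay below all controls, as for 14.3% of tested genes. P2RY6, a nucleotide receptor, had -0.13 ± 0.61. MMP12, macrophage elastase, had 0 counts in every library but parthenote 3, which had 1. The summed level of the tested markers, most of it FOLR2, was 444 to 495 CPM in controls and 363 to 404 CPM in parthenotes. The part of macrophages in the GPNMB and CTSC values was not tested.

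Markers of granulocytes and lymphocytes, some of which hold granule proteases that CTSC activates, had few counts here. Of 28 granulocyte and lymphocyte markers 5 were in the table. CD3D, a T cell receptor chain, had 0 counts in all libraries, CD3E 7 counts over all of them and CXCR5 9. The 1 tested marker, POU2AF1 of B cells, had 4 to 15 counts per library and a log2 fold change of -1.17 ± 0.45 (SE). Its adjusted p in edgeR was 0.171, and its unadjusted p was under 0.05, as for 21.7% of all tested genes. DESeq2 and limma-voom called 0. MMP8, neutrophil collagenase, did not pass the filter on low counts, with 3, 23 and 12 counts in controls 1 to 3 and 3, 1 and 4 in parthenotes 1 to 3. Without control 1 it passed the filter by its counts in controls 2 and 3 and was then called lower in edgeR (adjusted p = 0.0489). Nothing is read from that call, since the filter was met only by the group where MMP8 was higher. POU2AF1 had at least 10 counts only in controls, so it too passed the filter by its controls alone. Nothing is read from its fold change or p-values. It was not called without control 1. POU2AF1 was at 8.63 to 11.8 CPM in controls and 2.84 to 6.88 CPM in parthenotes.

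TYR, the tyrosinase of pigment cells, was the only 1 of 17 melanocyte markers in the table. It had 9, 16 and 27 counts in controls 1 to 3 and 36, 34 and 25 in parthenotes 1 to 3. These were 7.09 to 20.4 CPM in controls and 16.8 to 27.5 CPM in parthenotes, which overlapped, with a log2 fold change of 0.76 ± 0.41 (SE). TYR was not called by edgeR, DESeq2 or limma-voom, and its unadjusted p in edgeR was 0.0963. With overlapping groups and no call, the direction of TYR was not established. The part of pigment cells in the GPNMB values was not tested.

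The erythroid list was represented by HBB alone. HBB, adult-type beta globin, was at 873, 1226 and 2065 CPM in controls 1 to 3 and 167, 575 and 102 CPM in parthenotes 1 to 3. Every parthenote was below every control, as for 14.3% of tested genes. Parthenote 2 had the most HBB of its group, as it had of GPNMB, but the least STEAP2. The lowest parthenote was parthenote 3 for HBB and parthenote 1 for GPNMB. Among controls, control 3 had the most HBB and the least GPNMB. The log2 fold change of HBB was -2.30 ± 0.78 (SE) with an adjusted p of 0.189 in edgeR, 0.0454 in DESeq2 and 0.0293 in limma-voom, and 0.00550 in edgeR without parthenote 2. Its unadjusted p in edgeR was 0.0347, and 21.7% of all tested genes had one under 0.05. HBB was the only 1 of the 18 markers measured here. The part of blood in the GPNMB, CTSC and STEAP2 values was not tested.

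**Figure D4:**
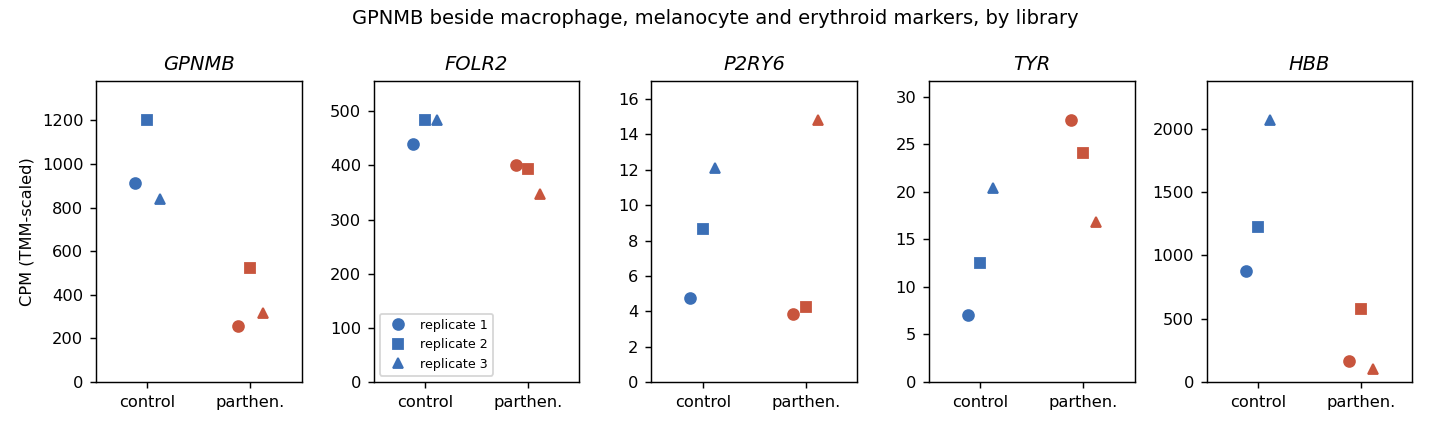
CPM of GPNMB, the macrophage markers FOLR2 and P2RY6, the pigment cell gene TYR and the globin gene HBB (vertical axes, linear and starting at 0) in control and parthenote libraries, 1 point per library with the replicate number as its shape. GPNMB, FOLR2 and HBB are lower in all parthenotes than in all controls, while P2RY6 and TYR overlap.

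Markers of tissue outside the embryo proper and of mesenchyme were also measured. Of 26 extraembryonic markers 7 were tested. In edgeR's test 1 was called higher and 2 lower, beside 1.61% and 3.59% of all tested genes. An unadjusted p under 0.05 was found for 5 of the 7 and for 21.7% of all tested genes. PTGS2 and TFPI2, which had such a p but were not called, had log2 fold changes of 1.52 ± 0.50 and -0.44 ± 0.15 (SE). APOC3, an apolipoprotein of liver and yolk sac, rose by 1.08 ± 0.20 (SE) on the log2 scale. The placental genes PEG10 and PLET1 fell, with log2 fold changes of -10.55 ± 0.39 and -2.70 ± 0.56. PLET1 had only 12, 20 and 18 counts in controls 1 to 3 and 2, 5 and 1 in parthenotes 1 to 3. It thus passed the filter by its controls alone, and its fold change rests on few reads, so nothing is read from its call. PEG10 is also known as a gene expressed from the paternal copy. The list's median was 0.11, and its summed level was 58981 to 68201 CPM in controls and 26517 to 51665 CPM in parthenotes. Without PEG10 the other 6 summed to 29374 to 34123 and 26507 to 51638 CPM, which overlap. APOC3 did not pass when control 1, 2 or 3 was left out (adjusted p 0.0609, 0.0730 and 0.0567), nor PLET1 without control 2 or 3 or parthenote 1 or 3 (0.118, 0.0746, 0.0588 and 0.0797). Of 21 mesenchyme and bone markers 4 were in the table and 3 tested. edgeR, DESeq2 and limma-voom called 0 of the 3, and 2 had an unadjusted p under 0.05 in edgeR, as did 21.7% of all tested genes. COL1A2, a collagen I chain, stood at 45264 ± 1636 CPM in controls and 45407 ± 4091 CPM in parthenotes, and DLX5, a homeobox gene of bone and limb, had 0.46 ± 0.13. The mesenchyme list's median was 0.34 and its summed level 43709 to 46872 CPM in controls and 41052 to 48267 CPM in parthenotes.

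Genes with the most similar profile were found by Pearson's r of log2 CPM over the 6 libraries, among 656 genes with a symbol and at least 5 CPM. These r values describe 6 libraries that share 2 groups, so a difference between the groups alone gives a high r. GPNMB was most like FOLH1B (r = 0.988), CRYAB, a small heat shock protein gene (0.981), and KIAA0040 (0.977). None of these was called, and their log2 fold changes were -0.41 ± 0.12, -0.38 ± 0.16 and -0.44 ± 0.13 (SE).

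CTSC was most like TBRG1 (r = 0.985), SLC37A4, the glucose 6-phosphate transporter (0.978), and APLP2, a relative of the amyloid precursor (0.972). SLC37A4 fell from 2523 ± 251 to 1628 ± 312 CPM, with an adjusted p of 0.0321 in edgeR, and the other 2 were not called. STEAP2 was most like PPP2R5A, a phosphatase subunit (0.987), DLAT, a subunit of pyruvate dehydrogenase (0.987), and TOMT (0.974). DLAT fell by 0.52 on the log2 scale and PPP2R5A by 0.40, with adjusted p-values of 0.00900 and 0.0272 in edgeR. STEAP1 was most like IL18, a cytokine gene (0.982), SDHD, a succinate dehydrogenase subunit (0.974), and ANKRD49 (0.948), none of which was called.

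**Figure D5:**
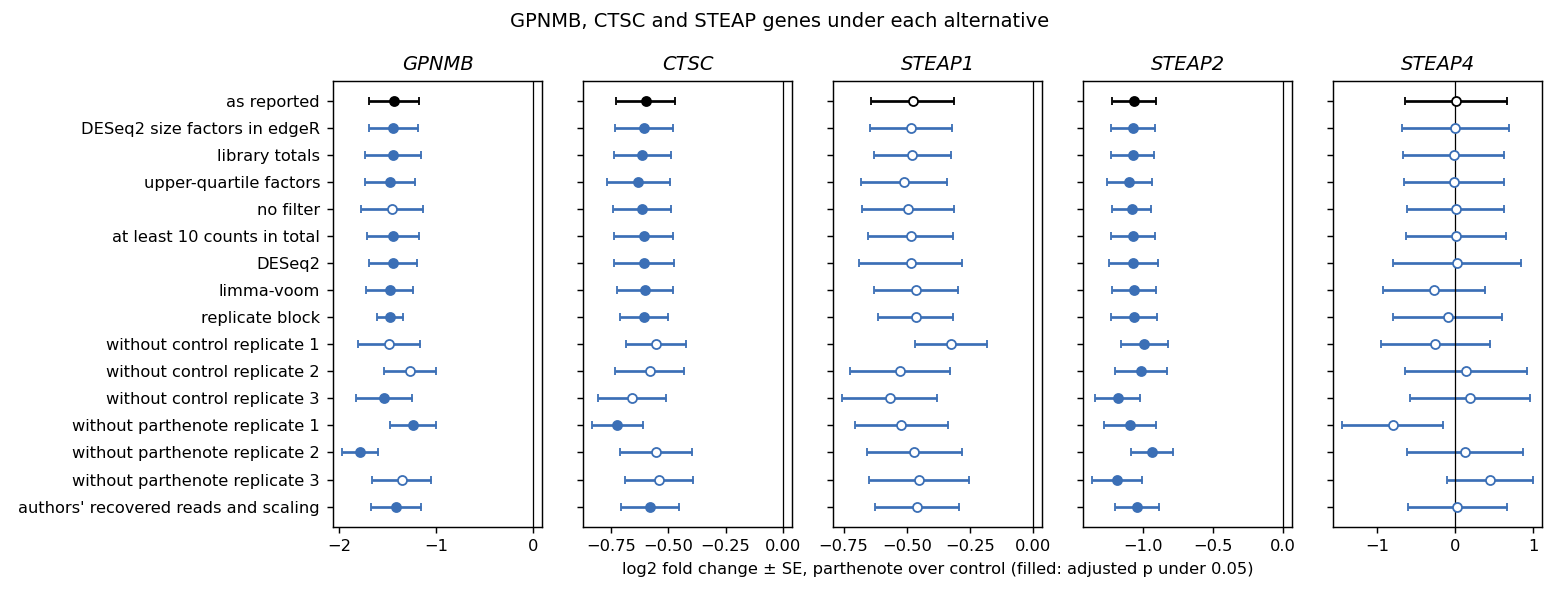
Log2 fold change of parthenote over control ± SE (horizontal axis) of each gene as reported (black) and in 15 alternatives (blue), filled where the adjusted p was under 0.05. STEAP2 is filled in every row, STEAP1 and STEAP4 in none, and GPNMB and CTSC lose the call mainly where a library was left out.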

How the data were processed

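Libraries of whole-embryo RNA were prepared with Illumina's TruSeq kit, version 2, according to the labels' protocols, and that kit does not mark strand. Per the submitters' processing notes, HISAT2 2.1.0 and SAMtools 1.9 were used with Sscrofa11.1. The counter, its settings and the annotation were not given in the sources used here. Raw counts per gene come from the authors' deposited table. Normalized signal comes from a deposited file per sample. Divided by a factor per sample (0.916 to 1.05), 100% of its 1190 values came within 0.01 of a whole read. In each library, 177 to 277 genes had other reads there than in the count table, with differences of at most 5 reads for the 5 genes here.

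Symbols were matched by Ensembl identifier, for 779 of 1780 genes. The test was edgeR 4.0.16 (R 4.3.3) on these counts, with TMM scaling, filterByExpr (at least 10 counts in enough libraries and 15 over all) and a robust quasi-likelihood fit. This left 807 genes, over which p-values were adjusted, and all 5 genes passed the filter. Alternatives were other scalings and filters, DESeq2 1.42.0, limma-voom (limma 3.58.1), a block for the replicate number, leaving out each library, and the authors' recovered reads and scaling. The table held 0 columns of unknown samples.

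Control and parthenote titles share replicate numbers. Deviations from the group means over 807 genes correlated at 0.365, 0.272 and 0.147 for numbers 1, 2 and 3, while control 3 and parthenote 2 correlated at 0.145. Each of the 3 exceeded 0.1. The blocked fit, run as an alternative, took samples of 1 number as a pair, which the labels do not state. Control 3 with parthenote 2 also exceeded 0.1, so these values do not establish a pairing. The genes and lists were chosen with earlier results of these data known. The text names the 5 genes, called list members or otherwise the 2 most abundant, the 2 nearest neighbours within 500000 bp and the 3 most similar profiles. Other list members are named to describe a list, a choice made once their values were known. A few genes of the lists are not reported here and were left out of the list counts.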

Additional observations from a re-analysis of the deposited data

How the results depend on the processing

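STEAP2 kept its call and STEAP1 stayed without one in all 15 alternatives. GPNMB lost its call without a filter, at a log2 fold change of -1.45, and its values without a library ran from -1.78 to -1.24. For CTSC they ran from -0.72 to -0.54, for STEAP1 from -0.57 to -0.32 and for STEAP2 from -1.18 to -0.93. Fewer samples are part of these fits, and why single libraries mattered was not tested. STEAP4 changed sign to -0.020 with library totals, -0.017 with upper-quartile factors, -0.27 in limma-voom and -0.098 with the replicate block, and ran from -0.80 to 0.45 without a library. COL1A2, near 0, became -0.0027 with DESeq2's size factors and in DESeq2, -0.0079 with library totals, -0.030 with upper-quartile factors, -0.013 without a filter, -0.0034 at 10 counts in total and -0.00010 in limma-voom, and ran from -0.051 to 0.079 without a library. SLC30A1 became -0.00023 with upper-quartile factors and ran from -0.084 to 0.23 without a library, FLVCR1 from -0.035 to 0.17 and P2RY6 from -1.07 to 0.21. The cause of these sign changes was not tested. The number of called genes was 42, moved to 65 in DESeq2 and ran from 17 to 55 without a library. It was 55 with the replicate block, which ended no call of GPNMB, CTSC or STEAP2. Called genes that were lower made up 69.0%, and 84.4% with library totals. STEAP4 had 3 to 17 counts per library and a wide spread between parthenotes, and the part of depth in its error was not tested.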
